A study of Rattus norvegicus with 4 samples.

Results

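Tspo, a cholesterol-binding protein of the outer mitochondrial membrane, and Acat2, Mvk and Cyp51, enzymes of sterol synthesis, were followed in rat liver at 12 h after surgery that tied off the common bile duct. The genes were taken by symbol from the annotation table of the array, which gave 7 of 1936 probes and 4 of 958 named genes: 1 probe each for Tspo (probe 860), Acat2 (probe 681) and Mvk (probe 495), and 4 probes for Cyp51 (probes 194, 419, 1389 and 1471). All 4 genes were measured on every array. They were chosen by their ratios between ligation and sham, which were already known, so those ratios are given as a description with no test.

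Both groups were male Sprague-Dawley rats of 250 to 300 g with free access to food and water. In one group the duct was tied between the liver hilus and the intestine, and in the other, under the same ether anaesthesia, it was exposed without being tied. RNA from the frozen right lateral lobe of 3 rats per group was mixed into a pool, and each of 4 two-colour cDNA arrays carried both pools. The ligation pool was in Cy5 on arrays 1 and 3 and in Cy3 on arrays 2 and 4. No label says whether the 4 arrays repeat 1 pair of pools, so any error below is the spread between arrays and not between animals. In RNA of whole liver, fewer cells of a type and less RNA per cell cannot be told apart. A ratio also carries no level, so the tissue label could not be set against marker levels.

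Cholesterol is built from acetyl-CoA through mevalonate, squalene and lanosterol. Acat2 here is the cytosolic thiolase that makes acetoacetyl-CoA, the starting step of the route, and is a different protein from the sterol acyltransferase that once carried the same name. Mvk phosphorylates mevalonate, and Cyp51 removes a methyl group from lanosterol. The genes of this route are known targets of the transcription factor SREBP2, which becomes active when membrane cholesterol is low. Cholesterol that reaches the inner mitochondrial membrane can be hydroxylated by Cyp27a1, an entry into bile acid synthesis in the liver, or cleaved by Cyp11a1 in steroid-producing tissues. Tspo, long known as the peripheral benzodiazepine receptor, has been described as part of that import, a role that is still debated.

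The start regions of the 3 synthesis genes are shown because the enzymes are known to share a regulator, and because their ratios are compared with that of Tspo here. The RefSeq promoter table (build GRCr8) held a promoter for 3 of the 4 genes, each 300 bases long, from 250 before to 50 after the transcription start, and they are printed 5′ to 3′ along the gene. Capitals mark the letters CCAAT, the box bound by NF-Y, and GGGCGG, the box bound by Sp1, each on either strand, and no capitals overlapped between the motifs. The sterol regulatory element was searched as TCACNCCAC on both strands.
Acat2 (chr1:50100590-50100889, plus strand): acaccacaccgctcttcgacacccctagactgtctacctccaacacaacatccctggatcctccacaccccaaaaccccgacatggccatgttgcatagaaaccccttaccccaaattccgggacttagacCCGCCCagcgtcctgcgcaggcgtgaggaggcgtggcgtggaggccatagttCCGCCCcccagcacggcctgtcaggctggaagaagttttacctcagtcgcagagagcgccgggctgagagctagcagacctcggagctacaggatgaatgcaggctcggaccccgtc
Mvk (chr12:47819454-47819753, minus strand): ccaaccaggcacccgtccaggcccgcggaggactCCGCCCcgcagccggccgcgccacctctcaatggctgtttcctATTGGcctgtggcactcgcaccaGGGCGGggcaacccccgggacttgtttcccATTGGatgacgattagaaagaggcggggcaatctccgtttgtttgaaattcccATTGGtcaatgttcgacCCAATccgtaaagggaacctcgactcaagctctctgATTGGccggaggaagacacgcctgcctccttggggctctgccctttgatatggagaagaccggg
Cyp51 (chr4:30991443-30991742, plus strand): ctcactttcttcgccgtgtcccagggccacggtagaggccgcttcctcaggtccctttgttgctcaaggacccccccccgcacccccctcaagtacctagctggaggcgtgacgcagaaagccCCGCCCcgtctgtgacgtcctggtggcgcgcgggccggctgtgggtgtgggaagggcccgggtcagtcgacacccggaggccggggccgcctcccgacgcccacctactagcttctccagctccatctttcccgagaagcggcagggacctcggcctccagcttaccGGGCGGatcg
The Mvk window held CCAAT at 5 places, and neither the Acat2 nor the Cyp51 window held it. GGGCGG occurred 2 times in each of the 3 windows. The letters of the sterol regulatory element were in none of the 3. Among all 33469 promoters of the table, 37.5% held CCAAT, 33.1% held GGGCGG and 1.12% held TCACNCCAC. These matches are a description of the letters in the windows.

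The deposited values were log ratios of the channels, taken as base 2. No source gives their direction. Ligation over sham was assumed for all 4 arrays, a likely reading because the labels list sham first and ligation second. The direction is not settled. Arrays of opposite dye orientation correlated at r between -0.45 and -0.28 over the 1936 probes, while arrays of the same orientation correlated at 0.93 and 0.94. Such correlations would arise with ratios of Cy5 over Cy3, and also with ligation over sham where the split by dye is large. They do not decide between the readings. Mean centred ratios of the members and of the other listed genes named below are therefore also given for a table read as Cy5 over Cy3. Other values are for ligation over sham unless stated. The array medians were -1.26 and -0.96 with ligation in Cy5 and 0.43 and 0.26 with ligation in Cy3, and centred values are relative to them. The dye term of a gene is the amount by which its centred ratio with ligation in Cy5 exceeded its mean over both orientations. Read as Cy5 over Cy3, the centred mean of a gene equals this dye term. Centring adds 0.72 to it for every gene.

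Tspo was the member with the lowest ratio. On the deposited scale its probe stood at -1.81, -1.83, -1.77 and -1.76 on arrays 1 to 4, a mean of -1.79 ± 0.03 (SD, n = 4 arrays), which is 3.46-fold lower with ligation. The 4 values lay within 0.07 of each other although the array medians differed by dye. Among the 958 genes, 6 had 4 deposited values within a narrower range, and the median gene had a range of 1.53. Centred on the array medians, Tspo was at -0.55 and -0.82 with ligation in Cy5 and at -2.25 and -2.02 with ligation in Cy3. It was therefore below the array median on all 4 arrays, and the orientations did not overlap. The centred mean was -1.41 ± 0.85 (SD, n = 4 arrays), or 2.66-fold lower, with a standard error of 0.08 once the dye term was fitted. Only 5 of the 958 genes had a lower mean. With the signs of arrays 2 and 4 turned, as in a table read as Cy5 over Cy3, Tspo would be higher after centring, at 0.72 ± 0.08 (SE), and at -0.00036 without it.

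**Figure D1:**
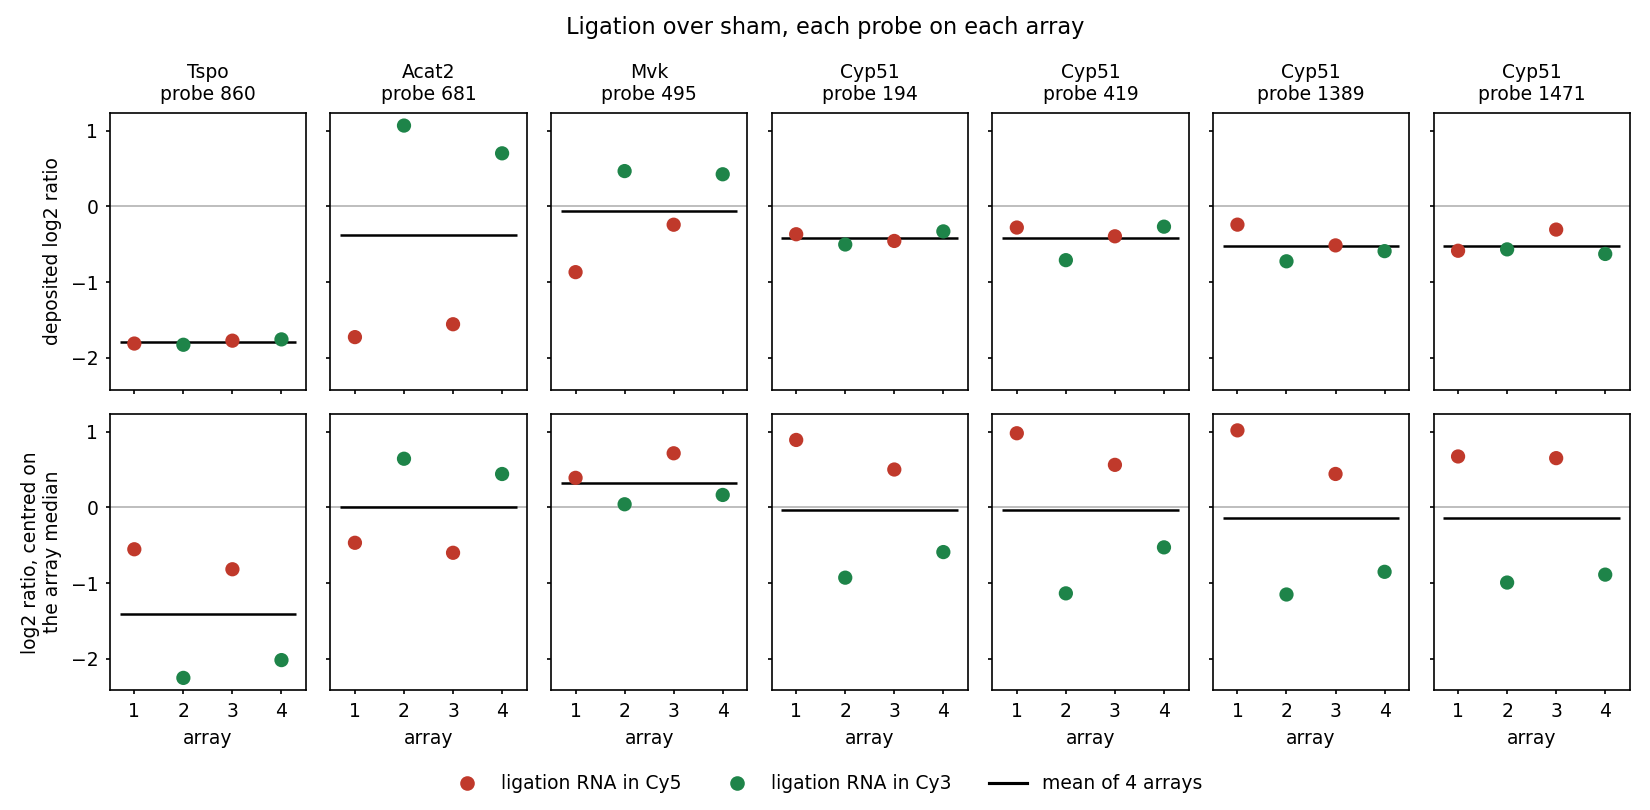
Each of the 7 probes on arrays 1 to 4, as deposited (upper row) and centred on the array median (lower row), in log2 units with 1 point per array, coloured by the dye of the ligation RNA, and a line at the mean. The deposited points of Tspo lie together near -1.79, those of Acat2 split by dye from -1.72 to 1.07, and centring spreads the Tspo and Cyp51 points by dye.

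Acat2, at the start of the route, showed no ratio of its own that exceeded the split by dye. Its centred values were -0.47 and -0.60 with ligation in Cy5 and 0.64 and 0.44 with ligation in Cy3, so its sign followed the dye. The mean was 0.0042 ± 0.63 (SD, n = 4 arrays), with an SE of 0.08 from the fit. On the deposited scale the probe ranged from -1.72 to 1.07. Read as Cy5 over Cy3, Acat2 would be at -0.54 ± 0.08 (SE).

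Mvk, the mevalonate kinase, was above the array median on all 4 arrays. Its centred values were 0.39 and 0.71 with ligation in Cy5 and 0.04 and 0.16 with ligation in Cy3. The mean was 0.33 ± 0.30 (SD, n = 4 arrays), or 1.26-fold higher with ligation, with an SE of 0.08 from the fit. The zero point decided this sign: without centring the values were -0.87, 0.47, -0.24 and 0.43, and the mean was -0.05. Read as Cy5 over Cy3, Mvk would be at 0.22 ± 0.08 (SE), so both readings of the centred table placed it above the median.

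Cyp51, the lanosterol demethylase, was the one gene measured by several probes, which lay in 4 different print blocks of the slide. Averaged over the probes, its centred values were 0.89 and 0.54 with ligation in Cy5 and -1.05 and -0.71 with ligation in Cy3. The mean was -0.08 ± 0.94 (SD, n = 4 arrays), with an SE of 0.09 from the fit. The sign followed the dye in each of the 4 probes, and the probe means were -0.03 (-0.0318), -0.03 (-0.0304), -0.14 (-0.135) and -0.14 (-0.139). Its deposited values were closer together, at -0.37, -0.63, -0.42 and -0.45 for arrays 1 to 4, a mean of -0.47 ± 0.11 (SD, n = 4 arrays). All 16 deposited Cyp51 values, 4 probes on 4 arrays, were negative, between -0.72 and -0.24. The zero point again sets the reading: Cyp51 was 1.38-fold lower on the deposited scale, where the median gene stood at -0.39. After centring it was 1.06-fold lower, with 295 of the 958 genes below it and 662 above. Read as Cy5 over Cy3, the centred mean would be 0.80 ± 0.09 (SE).

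By the limma fit over the whole table at a Benjamini-Hochberg adjusted p under 0.05, 2 of the 4 members were called, Tspo lower and Mvk higher, where 27.1% of the 958 genes were called (11.7% higher and 15.4% lower). By size and sign, at least 1.5-fold with the same sign on all 4 arrays, Tspo alone was counted, in the lower direction, as were 2.82% of all genes (3.76% in either direction). Without centring 3 members were called, all lower (Tspo, Acat2 and Cyp51), beside 82.6% of all genes called lower and 83.7% in either direction. Read as Cy5 over Cy3 all 4 were called, 3 higher and Acat2 lower, beside 45.2% of all genes higher, 32.8% lower and 78.0% in either direction. In the centred table read as ligation over sham, Mvk lost its call without array 3, at 0.25. These counts use the ratios for which the genes were chosen, and nothing is read from them.

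The difference between Tspo and a synthesis gene on the same array does not depend on where the array is centred. Tspo minus Cyp51 was -1.44, -1.20, -1.35 and -1.30 on arrays 1 to 4. These 4 differences lay close together in both orientations, with a mean of -1.33 ± 0.10 (SD, n = 4 arrays), so that the Tspo ratio was 2.51-fold below that of Cyp51. Tspo minus Mvk was -0.94, -2.29, -1.53 and -2.18, a mean of -1.74 ± 0.63 (SD, n = 4 arrays). The sign was the same on each array, and the size was larger with ligation in Cy3. Tspo minus Acat2 was -0.09, -2.89, -0.22 and -2.46, a mean of -1.41 ± 1.47 (SD, n = 4 arrays), which is smaller than its spread. The Acat2 difference was thus close to 0 on the arrays with ligation in Cy5 and over 2 log2 units on the others. Tspo was below each of the 3 synthesis genes on all 4 arrays. This order holds for ligation over sham. Read as Cy5 over Cy3, the means would be -0.07 ± 1.53 for Cyp51, 0.50 ± 2.02 for Mvk and 1.26 ± 1.64 for Acat2 (SD, n = 4 arrays). Those SDs include the split by dye.

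**Figure D2:**
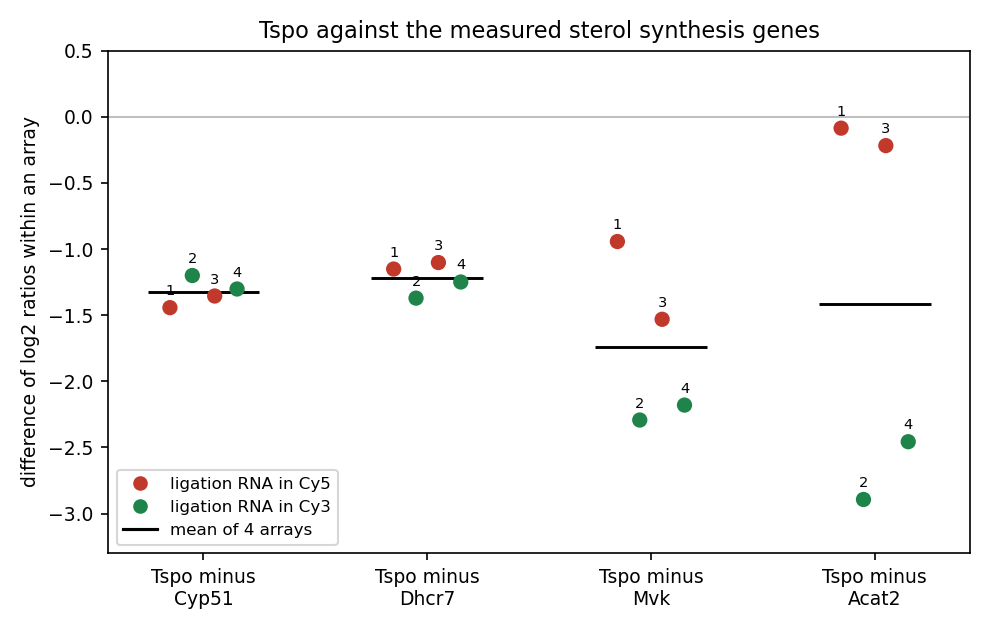
Difference of log2 ratios within each array (y axis) between Tspo and the sterol synthesis genes measured, with 1 point per array, numbered and coloured by the dye of the ligation RNA, and a line at the mean. Tspo minus Cyp51 stays between -1.44 and -1.20, whereas Tspo minus Acat2 runs from -0.09 to -2.89 and splits by dye.

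The synthesis enzymes also differed from one another by an amount that changed with the dye. Cyp51 minus Mvk ran from -1.09 to 0.50 and was negative on 3 of 4 arrays. Cyp51 minus Acat2 ran from -1.69 to 1.36, and Mvk minus Acat2 from -0.60 to 1.31, each negative on the arrays with ligation in Cy3. No order among the 3 enzymes held on all 4 arrays.

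The dye terms of the members covered most of the range seen on the array. They were -0.54 for Acat2, 0.22 for Mvk, 0.72 for Tspo and 0.80 for Cyp51, and 8.87%, 56.9%, 89.0% and 94.9% of the 958 genes had a lower one. Centring itself added 0.72 to the dye term of every gene. On the deposited scale the same quantity was -1.26 for Acat2, -0.50 for Mvk and -0.00036 for Tspo. For the 4 Cyp51 probes it was between 0.0022 and 0.14. As deposited, Tspo and Cyp51 thus had little split by dye, and Acat2 and Mvk had a larger one. Of the 248 genes with a dye term below -0.3, as in Acat2, 2.42% were called by limma, and the middle 50% of their ligation effects lay between -0.05 and 0.05. Of the 254 genes with a dye term above 0.5, as in Tspo and Cyp51, 48.8% were called, and the middle 50% lay between -0.30 and 0.19. Ratios near 0 were thus the rule among genes with the dye term of Acat2. Among the 201 probes with the dye term nearest to that of Tspo, 3 had a lower ligation effect, and Tspo was 1.47 below their median. The corresponding distances were between -0.19 and -0.05 for the 4 Cyp51 probes, 0.32 for Mvk and 0.0017 for Acat2.

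**Figure D3:**
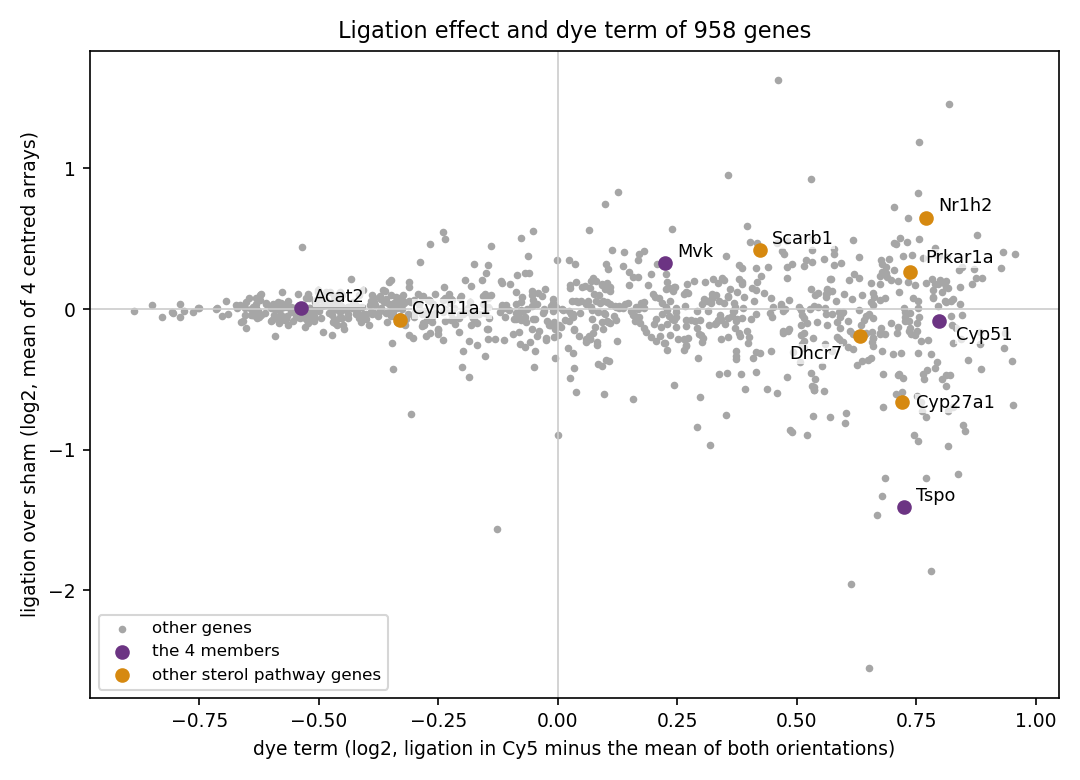
Ligation effect (y axis, log2, mean of 4 centred arrays) against the dye term (x axis, log2) for 958 genes, with 1 point per gene and the sterol pathway genes named. Effects spread out as the dye term rises, and Tspo at -1.41 lies near the lower edge of the genes with a dye term like its own, 0.72.

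Few other genes of the route were measured under a name. Of 23 listed genes of cholesterol synthesis 4 were measured, the 3 members and Dhcr7, the reductase that completes cholesterol. Of these 4, 1 was called higher (Mvk, a member chosen by its ratio) and 0 lower, with a median effect of -0.04, where the median over all 958 genes was -0.01. Over the same 958 genes, 11.7% were called higher and 15.4% lower. Dhcr7 had centred values of 0.60 and 0.29 with ligation in Cy5 and -0.88 and -0.77 with ligation in Cy3. Its mean was -0.19 ± 0.08 (SE), which did not pass limma's test over 4 arrays (adjusted p = 0.0933), but did without array 1 (-0.27, adjusted p = 0.0359) and without centring (-0.57, adjusted p = 0.00022). The Dhcr7 probes stood at -0.22 and -0.17. Tspo minus Dhcr7 was between -1.37 and -1.10, a range much like that of Tspo minus Cyp51. Read as Cy5 over Cy3, the mean of Tspo minus Dhcr7 would be 0.09 ± 1.41 (SD, n = 4 arrays). None of 6 listed genes of acetyl-CoA supply and mitochondrial paralogues was measured.

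Both measured genes among 29 listed for sterol sensing, uptake, esterification and efflux were called higher by limma, with a median of 0.53. Over all 958 genes, 11.7% were called higher. The median dye term of these genes was 0.60, and 48.8% of genes with a dye term above 0.5 were called in either direction. Scarb1, the receptor that takes up cholesterol from high-density lipoprotein, was at 0.82 and 0.86 with ligation in Cy5 and at 0.09 and -0.10 with ligation in Cy3. Its mean was 0.42 ± 0.07 (SE, limma adjusted p = 0.000823, higher on 3 of 4 arrays), but 0.04 and not called without centring (adjusted p = 0.743). Nr1h2, the oxysterol receptor LXR beta, was at 1.49, -0.19, 1.35 and -0.05 on arrays 1 to 4. Its mean was 0.65 ± 0.07 (SE, limma adjusted p = 2.37e-05, higher on 2 of 4 arrays). Its deposited values all lay between 0.21 and 0.40, so it stayed above 0 without centring, at 0.27 (adjusted p = 0.0139).

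Of 21 listed genes for cholesterol import into mitochondria and its partners 4 were measured, with 2 called lower, 1 higher and a median of -0.37. These include Tspo, which was chosen by its ratio. The median dye term of the 4 was 0.72, and 48.8% of genes with a dye term above 0.5 were called in either direction. Besides Tspo, the lower gene was Cyp27a1, at 0.19 and -0.08 with ligation in Cy5 and -1.43 and -1.34 with ligation in Cy3. Its mean was -0.66 ± 0.08 (SE, limma adjusted p = 2.73e-05, lower on 3 of 4 arrays). The Cyp27a1 probes stood at -0.67 and -0.66. On the deposited scale its 4 values lay within 0.08 of each other, around a mean of -1.04. Prkar1a, the regulatory subunit of protein kinase A, was at 1.11 and 0.90 with ligation in Cy5 and -0.52 and -0.42 with ligation in Cy3. Its mean was 0.27 ± 0.08 (SE, limma adjusted p = 0.0175, higher on 2 of 4 arrays). Leaving out array 1 ended that call (0.21, adjusted p = 0.0774), as did leaving out array 4 (0.24, adjusted p = 0.139). Prkar1a was at -0.12 without centring. Cyp11a1, the side-chain cleavage enzyme, did not pass (-0.08 ± 0.07, limma adjusted p = 0.493). The 3 Cyp11a1 probes stood at -0.28, -0.02 and 0.05. Of the 10 measured sterol pathway genes in all, 4 were called higher and 2 lower, where 11.7% of all genes were called higher and 15.4% lower. The counts include Tspo and Mvk, chosen by these ratios, and nothing is read from those calls. Under the Cy5 over Cy3 reading, 8 would be called higher and 2 lower, beside 45.2% and 32.8% of all genes, with Dhcr7 at 0.63, Scarb1 at 0.42, Nr1h2 at 0.77, Prkar1a at 0.74, Cyp27a1 at 0.72 and Cyp11a1 at -0.33.

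**Figure D4:**
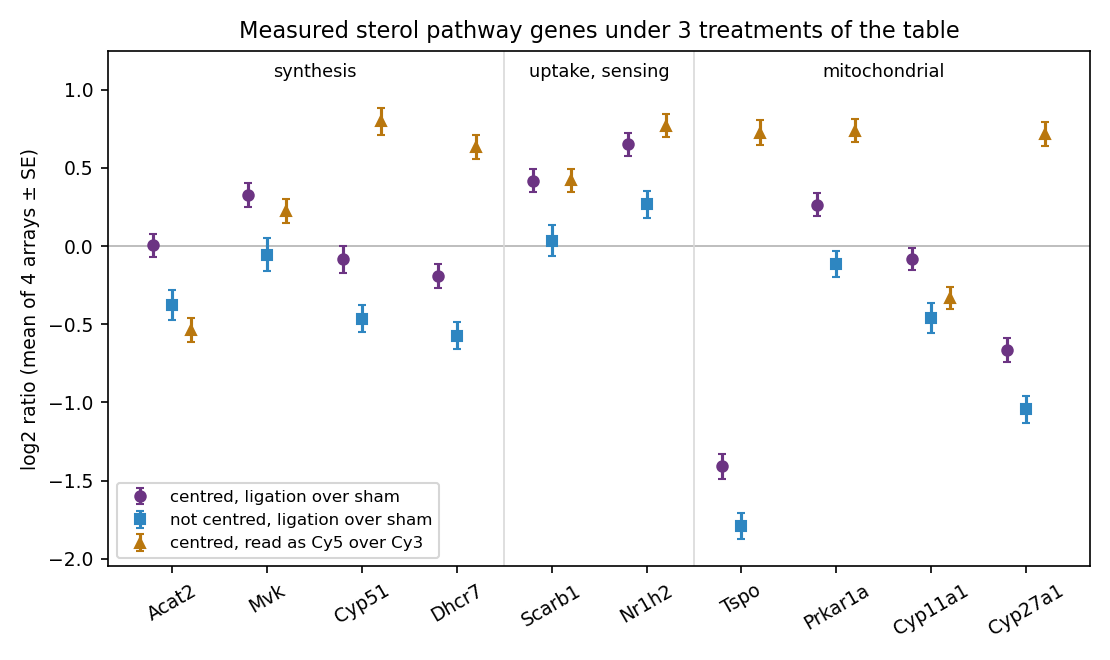
Mean log2 ratio of the 10 measured sterol pathway genes (y axis, 4 arrays, bars show the SE of the fit), centred, not centred, and centred with the table read as Cy5 over Cy3. Tspo and Cyp27a1 are the lowest whether centred or not, and both lie above 0, at 0.72, under the other reading. In that reading centring alone adds 0.72 to every gene, and Tspo without it is at -0.00036.

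Beside the counts in the 5 lists that follow, 11.7% of all 958 genes were called higher and 15.4% lower. Of 47 other mitochondrial proteins listed, 5 were measured, 2 called higher and 0 lower, with a median of -0.10 and a range from Atp5pb, a subunit of ATP synthase (-0.14), to the superoxide dismutase Sod2 (0.37). With the direction turned, Atp5pb would be at 0.83 and Sod2 at 0.81. Tspo is also made by macrophages and other non-parenchymal cells, and few of their markers were measured. Of 27 leukocyte and Kupffer cell markers 6 were measured, 0 higher and 3 lower, with a median of -0.165 and a range from Tnf (-0.57) to Spn (-0.02). Of 15 stellate cell and matrix markers 4 were measured, 1 higher and 1 lower, from Col1a1 (-0.23) to Timp1 (0.35). Of 11 genes listed as cholangiocyte markers 3 were measured, from Cd24 (-0.05) to Anxa5 (0.95). Anxa5 was the 1 called higher. Neither Spp1 (0.14) nor Cd24 was called, so the list as a whole showed no common direction. All 4 measured of 10 hepatocyte markers (Serpina1, Ttr, Tf and Apoa1) were called higher, from Serpina1 (0.20) to Apoa1 (0.38), where 11.7% of all genes were. The 4 do not stand for hepatocyte RNA as a whole. Outside the list, for example, Slc10a1 was lower (-0.76) and Cyp2c22 higher (1.46). Serpina1 was above the array median on 4 of 4 arrays, but Apoa1 only on the 2 with ligation in Cy5. The median dye term of the 4 hepatocyte markers was 0.66, and 48.8% of genes with a dye term above 0.5 were called in either direction. Turning the direction would put Serpina1 at -0.19 and Apoa1 at 0.80. Of the genes called higher in these 5 lists, only Anxa5 stayed above 0 without centring (0.57). Tnf would be above 0, at 0.44, if the table were read as Cy5 over Cy3. In that reading Spn would be at -0.12, Col1a1 at -0.06, Timp1 at -0.0005, Cd24 at -0.51 and Anxa5 at 0.36. The part of these cell types in the Tspo ratio was not tested.

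Among the genes outside the 4 members, those most like each member were taken as the 3 with the smallest root mean square difference over the 4 centred values. For Tspo they were the receptor Notch3 (0.10, with an effect of -1.33), the organic anion transporter Slc22a8 (0.15, effect -1.47) and Cyp2b21 (0.22, effect -1.20). For Cyp51 they were Atp5pb (0.07, effect -0.14), the ferritin chain Fth1 (0.07, effect -0.04) and Ptprn (0.09, effect -0.06). For Mvk they were Cyp2c12 (0.08, effect 0.34), Sh3yl1 (0.08, effect 0.35) and the glutathione peroxidase Gpx2 (0.11, effect 0.25). For Acat2 they were Ggt1 (0.04, effect 0.02), Klf10 (0.04, effect -0.02) and Folr1 (0.04, effect -0.03). Likeness over 4 arrays includes a like dye term. Cytochrome P450 probes can bind related transcripts, so single members of that family are uncertain.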

How the data were processed

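The authors deposited log ratios for each probe of each array, taken here as log2. Their base and direction are not stated. Scanning, background correction and normalization are likewise not given in the sources read. Of 1936 probes, 1432 had 1 gene symbol, 19 several and 485 none in the platform table, and 1429 of the 1432 matched a RefSeq gene (GRCr8) with the same symbol. The 288 spots at the 18 positions unnamed in each of 16 print blocks were taken as control spots and left out of tests. Arrays were centred on their medians, probes of a gene averaged, and a model with a ligation and a dye term was fitted with limma 3.58.1 (R 4.3.3, eBayes) over 1174 features, with Benjamini-Hochberg adjustment. Precision is limited by the 4 arrays. Named genes were the members, all measured sterol pathway genes, the extremes of other lists, and the 3 other genes nearest each member. Members and lists were chosen with earlier results of these data known. Centring, direction, quantile scaling, log base, dye term, variance prior, probe summary, spots and arrays were varied.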

Additional observations from a re-analysis of the deposited data

How the results depend on the processing

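Reading the table as Cy5 over Cy3 turned Tspo to 0.72, moved Acat2 to -0.54 and Cyp51 to 0.80, and turned Tspo minus Acat2 to 1.26 and Tspo minus Mvk to 0.50, with Tspo minus Cyp51 at -0.07 (-0.0738). It also turned Dhcr7 to 0.63 and Cyp27a1 to 0.72, called 433 genes higher and 314 lower, 168 and 58 by size and sign, and 8 sterol pathway genes higher. In this reading centring alone adds 0.72 to the value of every gene. Without centring Tspo was at -1.79, Acat2 -0.38, Cyp51 -0.47, Mvk turned to -0.05 (-0.054) and Prkar1a to -0.12, with 11 genes called higher and 791 lower, 3 and 124 by size and sign, and 1 sterol pathway gene higher and 6 lower. With no centring and the direction turned as well, a setting chosen after seeing the data, Tspo was at -0.00036, Acat2 -1.26, Mvk -0.50 and Cyp51 0.07. Without centring alone the median gene moved by -0.38, and relative to it Mvk stayed higher. Quantile normalization gave -1.18 for Tspo and -1.11 for Tspo minus Cyp51. Natural logarithms, converted, would give -2.03 for Tspo, differences of -2.04 from Acat2, -2.51 from Mvk and -1.91 from Cyp51, and 19 genes higher by size and sign. Without a dye term limma called 0 genes higher and 0 lower, and 0 of the pathway genes, with 52 genes at an unadjusted p under 0.05, because the split by dye then counts as error. Leaving out each array in turn gave -1.48 to -1.34 for Tspo, 0.25 to 0.41 for Mvk, -0.17 to 0.0037 for Cyp51 and -0.05 to 0.05 for Acat2. It gave 74 to 117 genes called higher and 103 to 151 lower, 9 to 13 and 25 to 43 by size and sign, and 6 to 7 of the 12 nearest genes kept. The 74 came without array 4 and the 43 without array 1. Mvk lost its call without array 3 (0.25). Centring on print blocks, chosen after seeing the data, kept 4 of the 12 nearest genes. Centring on the 201 probes with the nearest dye term, also chosen after seeing the data, took the call from Prkar1a (0.21). Named-probe centring and the median over probes moved none of the counts by over 1.5 times and no member by more than its spread within orientations. A robust prior, all spots and probe-wise tests moved none of the counts of limma calls by over 1.5 times. Each value is already a ratio of both pools within an array, so no further block was fitted. Signal over background is unknown, which limits what the ratios near 0 can show.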
